A study of Mus musculus with 3 samples.

Results

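Osterix, encoded by Sp7, and 4 transcription factors that work beside it in bone-forming cells, Atf4, Creb3l1, Vdr and Mef2c, were followed in mouse posterior frontal sutures, the seam that joins the paired frontal bones. The members were taken by gene symbol: every non-control probe that the scanner files name Sp7, Atf4, Creb3l1, Vdr or Mef2c was used. This gave 6 probes for 5 genes, of 55680 probes for 35019 genes on the array, with 2 probes for Atf4 and 1 for each of the others. Expression was measured on 3 one-colour Agilent arrays. The groups were Runx2+/+ mice at postnatal day 5 (P5), Runx2+/+ mice at postnatal day 7 (P7) and Runx2+/- mice at P7, all on the C57BL/6 strain, with 1 array each. Runx2 encodes a transcription factor needed for osteoblast formation, and the labels do not say what the mutant allele lacks. Neither the number of mice behind an array nor their sex is given in the labels. With 1 array per group no difference has a replicate check, none has a p-value, and each compares the samples hybridised rather than the conditions.

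Osteoblast differentiation is driven by a sequence of transcription factors. Runx2 commits mesenchymal cells to the bone lineage, and osterix, a zinc finger protein of the Sp family, acts downstream of Runx2 and is itself required for bone formation. Atf4 is a basic leucine zipper (bZIP) protein made largely under translational control, and it supports amino acid supply and collagen synthesis in osteoblasts. Creb3l1, also called Oasis, is a bZIP protein held in the endoplasmic reticulum membrane until proteases release it, and it acts on the type I collagen genes. Vdr is the nuclear receptor for the active form of vitamin D and binds DNA with a retinoid X receptor. Mef2c is a MADS-box factor known first from muscle and also active in hypertrophic cartilage and osteocytes.

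The results rest on 6 oligonucleotides of 60 bases. Their last 30 bases are given because they show where each message was read, with the polyadenylation hexamers AATAAA and ATTAAA in capitals wherever these letters occur in the shown strand.
Sp7: ggcctcttttagagtttctgtgggtgtctc
Creb3l1: cacatgctttaagaaggcaaaATTAAAaaa
Vdr: cagcaagatttcccaagataggagaatcct
Mef2c: atagacctccaagtgcaggtaacacaggta
Atf4, 5′ probe: taacggacaaagataccttcgagttaagca
Atf4, 3′ probe: tgctgtgtttgctgtAATAAAttattttgt

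On the mm9 build of the files the Sp7 probe lies at chr15:102187692-102187751 on the minus strand, the Vdr probe at chr15:97685136-97685195 on the minus strand and the Creb3l1 probe at chr2:91822506-91822565 on the minus strand. The Mef2c probe spans chr13:83772788-83775025 on the plus strand, 2238 genomic bases for a 60-base oligonucleotide, so its target is not contiguous in the genome. The Atf4 probes lie at chr15:80086639-80086698 and chr15:80087902-80087961 on the plus strand, at transcript positions 504 and 1655 in the files. The probes of Sp7, Creb3l1, Vdr and Mef2c start at transcript positions 2140, 2190, 4016 and 1104. Exon and UTR assignments were not looked up because no mm9 annotation was used here. The Creb3l1 probe and the 3′ probe of Atf4 each hold a polyadenylation hexamer.

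RefSeq promoter windows of 300 bases around a transcription start in GRCm38.p6 were matched for Vdr, Atf4 and 3 starts of Mef2c. The windows of Vdr and Atf4 are shown because these genes lay at opposite ends of the genotype comparison. Both strands were searched for TGTGGT (core Runx motif), TGACG (cyclic AMP response core), GGGCGG (GC box), AGGTCA (nuclear receptor core) and CCAAT. Capitals mark every match.
Vdr, chr15:97908247-97908546, minus strand: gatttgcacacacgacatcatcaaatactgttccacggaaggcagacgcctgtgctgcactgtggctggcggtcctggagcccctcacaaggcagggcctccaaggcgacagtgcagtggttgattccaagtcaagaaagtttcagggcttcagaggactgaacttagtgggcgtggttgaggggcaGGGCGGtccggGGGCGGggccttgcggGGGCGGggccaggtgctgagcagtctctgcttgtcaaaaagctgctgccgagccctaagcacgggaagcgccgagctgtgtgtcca
Atf4, chr15:80254934-80255233, plus strand: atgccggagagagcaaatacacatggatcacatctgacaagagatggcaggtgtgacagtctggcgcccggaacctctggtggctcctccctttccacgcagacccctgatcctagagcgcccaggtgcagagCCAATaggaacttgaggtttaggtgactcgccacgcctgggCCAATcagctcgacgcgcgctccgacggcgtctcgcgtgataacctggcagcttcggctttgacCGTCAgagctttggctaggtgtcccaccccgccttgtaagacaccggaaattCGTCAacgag

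The Vdr window held 3 GC boxes, at -63, -52 and -36 from the start site, and no other match. The Atf4 window held CCAAT at -117 and -76 and TGACG, read on the other strand, at -12 and 40. Among 32851 promoter windows of this length, GGGCGG occurred in 35.7%, CCAAT in 37.4%, TGACG in 20.8%, AGGTCA in 16.3% and TGTGGT in 16.8%. None of the 5 matched windows held TGTGGT. These are matches of letters in short windows and say nothing about binding.

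The arrays differed in ways that bear on every value below. The 75th percentile of the processed signal, the level used for scaling, was 52.1 intensity units at P5, 22.8 at P7 in wild type and 124.3 in Runx2+/-. Of the 55680 probes, 29.2% to 47.3% were well above background. Spiked-in control transcripts (8 probes) had a median log2 difference of -1.40 for genotype, opposite to the 75th percentile, and of -0.21 for age, the same way as the percentile. Along transcripts with several probes, the log2 difference rose towards the 3′ end by a median of 0.18 per kb for age (1084 transcripts) and 0.14 per kb for genotype (1090 transcripts). Xist stood at 2.45, 1.94 and -3.10 log2 units at P5, at P7 in wild type and in Runx2+/-, and the Y-linked Eif2s3y was at -0.35 at P5, not above background at P7 in wild type and at 2.37 in Runx2+/-. Runx2 itself was read by 3 probes. The brightest, at transcript position 362, stood at 2.38, 1.46 and 1.08, a genotype difference of -0.38. Those at positions 1830 and 2660 were not well above background at P7 in wild type and could not be ordered for genotype. Against P5, the Runx2+/- level differed by -1.30 (362), -0.98 (1830) and at least 0.74 (2660, not well above background at P5). The altered stretch of the gene is unknown, so Runx2 signal cannot tell whether the genotype given is right. Sex cannot be told apart from genotype or from age in these samples. The part of these features in the member values was not tested unless a value is given for it.

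All 6 member probes were well above background on all 3 arrays. In the comparison of genotypes at P7, which asked how loss of 1 Runx2 copy left the suture, Vdr, Sp7 and Creb3l1 were at least 2-fold lower on the Runx2+/- array after scaling, Mef2c was lower by less than 2-fold, and Atf4 was higher by less than 2-fold with either probe. Thus 3 of the 5 members lay 2-fold or more below wild type and 0 lay as far above it. Over all 14420 genes that could be ordered between these arrays, 13.8% lay 2-fold or more below, 5.2% as far above, and 19% in either direction. In the comparison of ages, 0 of the 5 members were 2-fold apart, where 9.61% of 14332 ordered genes were (3.29% lower and 6.33% higher at P7).

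**Figure D1:**
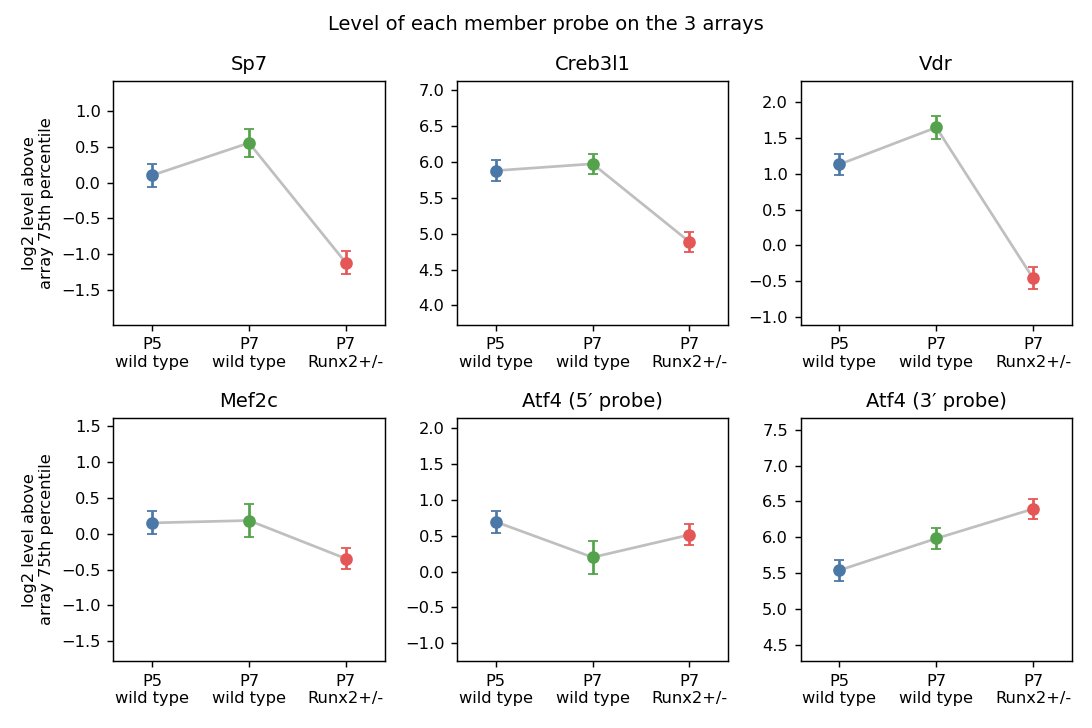
Scaled level (log2 units relative to each array's own 75th percentile) of the 6 member probes for wild type at P5 and P7 and for Runx2+/- at P7. Points are single arrays, bars are the scanner software's own error for that spot, and every panel covers the same height. Sp7, Creb3l1, Vdr and Mef2c are lowest on the Runx2+/- array, while the Atf4 probes are not.

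Sp7 encodes osterix itself. Its processed signal was 55.8 ± 6.21 intensity units at P5, 33.4 ± 4.58 at P7 in wild type and 57.2 ± 6.44 in Runx2+/-, where ± is the scanner software's error for the spot. After scaling, the level was 0.10, 0.55 and -1.12 log2 units relative to the 75th percentile. The P7 wild-type array was highest and the Runx2+/- array lowest on that scale. The Runx2+/- level was 3.19-fold below the P7 wild-type level, a log2 difference of -1.67 (software error 0.26). The SD of a log2 difference from repeated spots was 0.22 for genotype, and 0.33 for the dimmest of such probes. Without any scaling, the probe's rank among all probes went from percentile 78.9 at P7 in wild type to 67.4 on the Runx2+/- array, while its unscaled signal was the higher on the brighter Runx2+/- array. The probe was dim, and among probes of like brightness (the dimmest of 8 equal groups, 1997 probes) the median genotype difference was -0.70 and 38.2% were at least 2-fold lower. Sp7 lay 0.97 below that median, but the group is one-sided by selection. It held only probes well above background on both arrays. The lowest scaled level well above background was -0.78 at P7 in wild type and -3.25 in Runx2+/-. Only 0.10% of the group were at least 2-fold higher. In the next brighter group the median was 0.12 and 12.4% were at least 2-fold lower. How dim probes in general behave cannot be read from the dimmest group. Between P5 and P7 in wild type, Sp7 was 0.45 higher (software error 0.25), against a repeated-spot SD of 0.25, or 0.37 for dim probes.

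Vdr, the vitamin D receptor, showed the largest genotype difference of the 5 members. Its processed signal was 114.0 ± 11.7 units at P5, 71.2 ± 7.75 at P7 in wild type and 90.4 ± 9.5 on the Runx2+/- array. The scaled levels were 1.13, 1.65 and -0.46 log2 units. The order of the arrays was the same as for Sp7, with P7 wild type highest. The genotype difference was -2.10 (software error 0.22), a 4.30-fold lower level, and the rank went from percentile 85.5 to 72.0. Probes of like brightness had a median genotype difference of 0.25, and 9.62% of them were at least 2-fold lower. The age difference was 0.52 (software error 0.22).

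Creb3l1, the membrane-bound bZIP factor linked to collagen production, was measured far above background. Its processed signal was 3067 ± 307 units at P5, 1431 ± 143 at P7 in wild type and 3674 ± 367 on the Runx2+/- array, or 5.88, 5.97 and 4.89 log2 units after scaling. The wild-type arrays lay 0.09 apart, within the repeated-spot SD of 0.25. The Runx2+/- array was 2.13-fold lower than P7 wild type, a difference of -1.09 (software error 0.20). In the brightest of the 8 equal groups the median genotype difference was -0.09 and 15.2% of probes were at least 2-fold lower.

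Mef2c, the MADS-box factor, had a processed signal of 57.8 ± 6.39 units at P5, 25.8 ± 4.13 at P7 in wild type and 97.7 ± 10.2 on the Runx2+/- array. The scaled levels were 0.15, 0.18 and -0.35 log2 units, so the wild-type arrays were nearly level and the Runx2+/- array was lowest. The genotype difference of -0.53 (software error 0.28) was a 1.45-fold lower level and did not reach 2-fold. The age difference was 0.03.

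Atf4, the amino acid and stress response factor, was read by a probe towards each end of the message. The 3′ probe gave 2424 ± 242 units at P5, 1440 ± 144 at P7 in wild type and 10469 ± 1047 on the Runx2+/- array, which is 5.54, 5.98 and 6.40 log2 units after scaling. The 5′ probe gave 84.3 ± 8.89, 26.1 ± 4.12 and 177.5 ± 18.0 units, or 0.70, 0.20 and 0.51 log2 units. For genotype the probes went the same way, with differences of 0.41 (3′, software error 0.20) and 0.31 (5′, software error 0.27). After normexp with the median as scale they no longer did, at 0.89 and -0.46. For age they went opposite ways, 0.44 higher at P7 with the 3′ probe and 0.50 lower with the 5′ probe. The 1151 bases between them correspond to a slope of 0.81 per kb for age, where the median transcript had 0.18. No direction for Atf4 with age can be given from these probes.

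**Figure D2:**
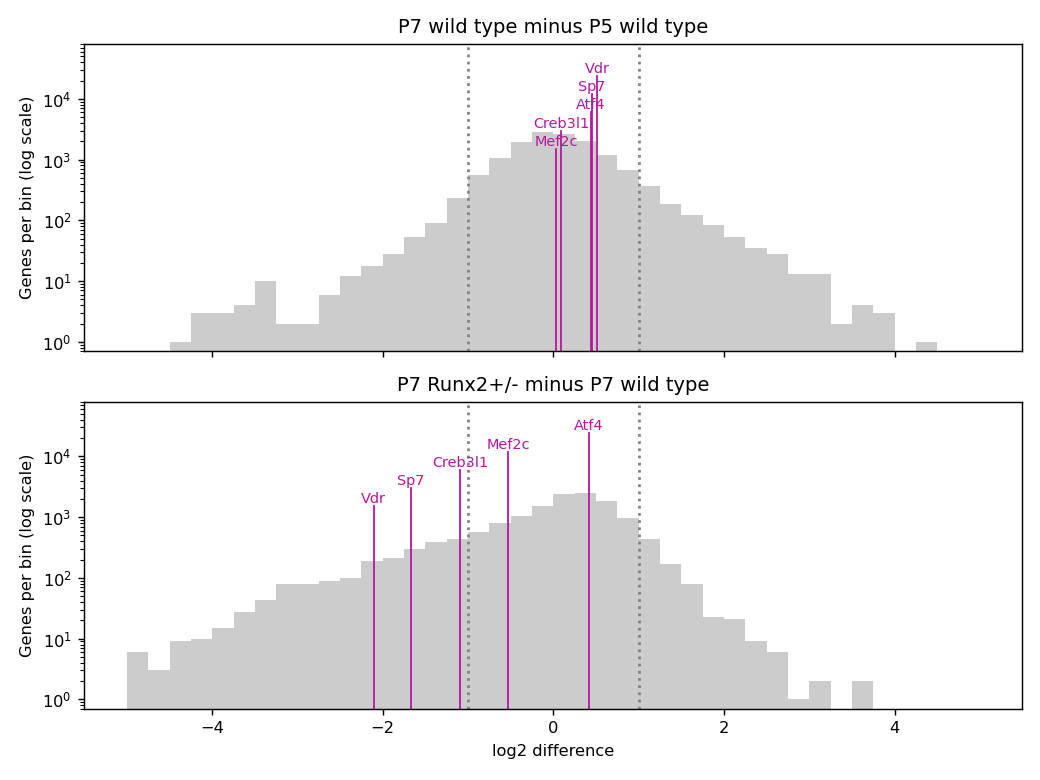
Histograms of log2 differences over all ordered genes (grey, log scale on the vertical axis, values beyond 5 placed in the end bins) for age (top) and genotype (bottom), with vertical lines at the members' values and dotted lines at 2-fold. Atf4 is drawn at its brighter, 3′ probe. For genotype Vdr (-2.10), Sp7 (-1.67) and Creb3l1 (-1.09) lie left of the lower dotted line, whereas for age all 5 lie between the dotted lines.

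The P7 Runx2+/- array could also be set against P5 wild type. These comparisons share arrays, so the values are not independent of those above. Sp7 was 1.22 lower than at P5, Vdr 1.59 lower, Creb3l1 0.99 lower and Mef2c 0.50 lower, and the 3′ and 5′ probes of Atf4 differed by 0.86 and -0.18. Of the 5 members, 2 were at least 2-fold lower, where 15.4% of 18148 ordered genes were, and 0 were at least 2-fold higher, where 8.67% were (24% in either direction). Atf4 passed 2-fold, at 1.13, after quantile normalization and in the authors' deposited table, and at 1.37 after normexp. Creb3l1 passed it, at -1.13, with the median of probes above background as scale. For Sp7, Vdr, Creb3l1 and Mef2c the Runx2+/- level thus lay below both wild-type arrays.

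The genotype directions depended on how arrays were brought to a common level. After normexp background correction with an offset of 50 and the same percentile, Sp7 and Vdr were lower by less than 2-fold (-0.88 and -0.98) and Creb3l1 turned to 0.14, while the median of all genes measured on both arrays moved from 0.10 to 0.68. Relative to that shifted median, Sp7 lay at -1.56, Vdr at -1.66 and Creb3l1 at -0.54. With no scaling, 2.45 is added to the genotype difference of every gene, and with scaling to the spiked-in transcripts 3.93 is added. All members then lay above 0, and so did the median of all genes, at 2.55 and 4.03. Relative to the median of all genes, Sp7 stayed at -1.77 and Vdr at -2.20 by construction. Such constants cannot change the order of the members. Under quantile normalization, cyclic loess, normexp and the authors' deposited table, which could, Vdr had the lowest and Atf4 the highest difference, and Creb3l1 and Mef2c changed places after normexp.

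**Figure D3:**
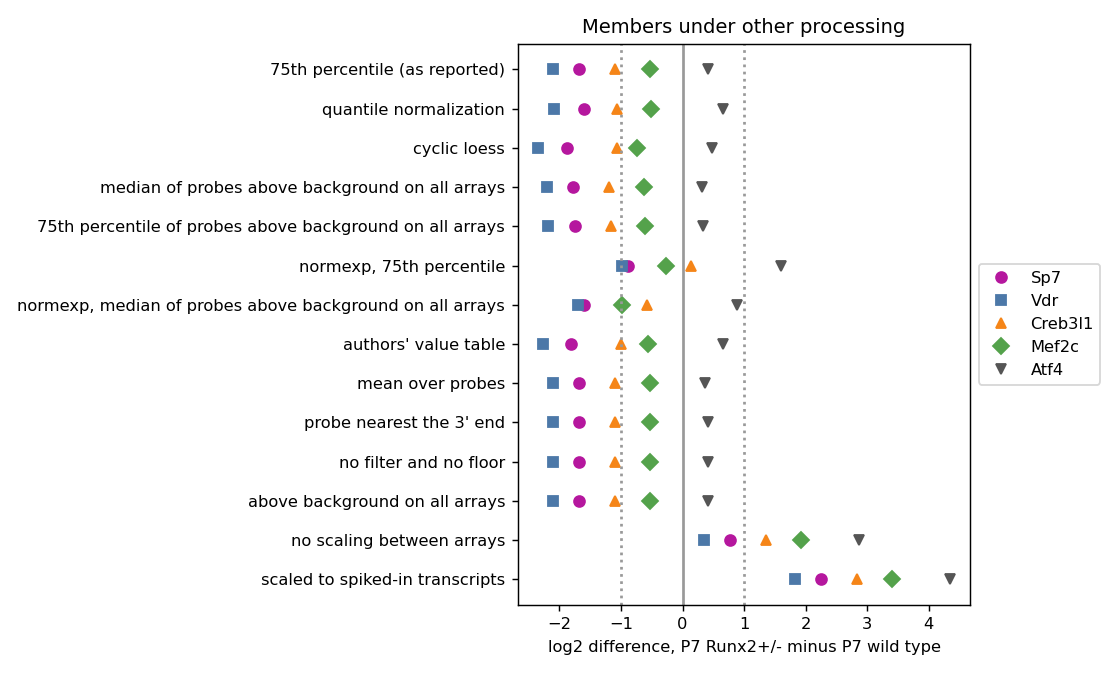
Genotype log2 difference (horizontal axis) of the 5 members under each processing setting (rows), with dotted lines at 2-fold. All 5 members lie right of 0 in the bottom 2 rows, which use no scaling or scaling to spiked-in transcripts and move every gene by 1 constant.

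Of 23 other osteoblast transcription factors, 20 could be ordered for genotype. Of these 20, 5 lay 2-fold or more below wild type and 0 above, where 13.8% and 5.2% of all ordered genes did. Their median was -0.29, beside a median of 0.13 over all ordered genes. The list median ran from -0.40 to 0.49 under 11 other processing settings, 1 of which changed its sign. The median of all ordered genes also moved with the setting. Among the lower genes were Dlx5 (-3.00), Tcf7 (-1.99), Dlx3 (-1.49) and Twist1 (-1.001). Dlx3 and Dlx5 are homeobox regulators of bone formation, and Tcf7 acts in Wnt signalling. Msx1 and Msx2, homeobox factors of the calvaria, were at -0.06 and 0.11, and Cebpb, a bZIP partner of Atf4, was at 0.42.

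Genes linked to osterix in bone followed mostly the direction of Sp7. Of 14 listed, 13 could be ordered for genotype, 7 were 2-fold or more lower and 2 were higher by as much, and the median was -1.77. Over all ordered genes 13.8% were 2-fold or more lower and 5.2% higher by as much, with a median of 0.13. Mmp13 (a collagenase of late osteoblasts and hypertrophic cartilage, -2.75), Bglap2 (osteocalcin, -2.49) and Col1a1 (the alpha 1 chain of type I collagen, -2.48) were among the lowest. Fmod (fibromodulin, a collagen-binding proteoglycan) was 1.19 higher and Col5a3 1.08 higher. For age the same list had a median of 0.69, with Mmp13 1.26 and Fmod 1.097 higher at P7, beside a median of 0.03 over all ordered genes. The list's genotype median was -0.92 after quantile normalization and -0.89 in the authors' deposited table. After normexp it was -0.49, where the median of all ordered genes was 0.62, and the age median was -0.02, where that of all ordered genes was -0.25.

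The other members of the Sp family were scarcely measured. Of 8, only Sp1, a widely expressed factor, was well above background on all arrays, and it was 0.15 higher for genotype and 0.87 higher for age. Sp5, Sp6, Sp8 and Sp9 did not clear background on any of the 3.

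Of the type I collagen genes, on which Creb3l1 acts, Col1a1 was at -2.48 and Col1a2 at -1.91 for genotype, the direction of Creb3l1. Both genes are also in the osterix-linked list. A separate list held the proteases that release it, the vesicle coat genes and the endoplasmic reticulum chaperones, and 14 of its 16 genes could be ordered for genotype. Of these 14, 1 lay 2-fold or more below, 0 as far above and 10 above 0. Of all ordered genes, 13.8% lay 2-fold or more below, 5.2% as far above, and most lay above 0. The list median was 0.34, beside 0.13 over all ordered genes. Sec23a and Sec24d, coat components that carry collagen out of the endoplasmic reticulum and that Creb3 family factors act on, were 0.87 and 0.70 higher. Hspa5 (the chaperone BiP) was 0.41 higher and Mbtps1 (the site 1 protease) 0.26 higher. Ern1, a stress sensor of that membrane, was 1.23 lower. Among the Atf and Creb3 relatives, 0 of 9 ordered genes were 2-fold apart for genotype, where 19% of all ordered genes were. Creb3 was at 0.61 and Creb3l2 at -0.17.

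Atf4 response genes lay mostly below 0 for genotype. Of 27 listed, 23 could be ordered for genotype, with 17 below 0, 1 lower by 2-fold or more and 2 higher by as much. Of all ordered genes, most lay above 0, 13.8% were lower by 2-fold or more and 5.2% higher by as much. The list median was -0.39, beside 0.13 over all ordered genes. After normexp the list median was 0.59, and that of all ordered genes 0.62. Mthfd2 (mitochondrial folate metabolism) was 1.30 lower and Asns (asparagine synthetase) 0.64 lower, while Slc38a2 (a neutral amino acid transporter) was 1.42 higher and Ddit3 (Chop) at least 2.42-fold higher. The last is a lower bound because Ddit3 did not clear background at P7 in wild type. For age, Pycr1 and Aldh18a1, both enzymes of proline synthesis, were 1.27 and 1.18 higher at P7 and the list median was 0.09. Of the genes that act on Atf4, the kinase Eif2ak2 was at least 2.26-fold higher for genotype and Nf1 was 0.67 lower. Eif2ak4 was 0.71 higher with its brightest probe, although another of its probes stood at -0.98. The median over the 6 ordered genes of this list was 0.23. It ran from -0.67 to 0.46 under 11 other processing settings, 3 of which changed its sign.

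Of the vitamin D genes, the retinoid X receptors Rxrb and Rxrg differed by 0.07 and -0.89 for genotype, although another Rxrg probe stood at 0.34. Rxra was well above background on the Runx2+/- array only. Med1, a coactivator subunit, was 1.01 lower with its brightest probe, although another of its probes was 0.63 higher. Cyp24a1, the enzyme that degrades active vitamin D and a classical Vdr target, did not clear background on any array, nor did Cyp27b1, Trpv6 and S100g. Over the 6 ordered genes the genotype median was -0.41, and 0 were 2-fold apart for age, where 9.61% of all ordered genes were. That median ran from -0.92 to 0.63 under 11 other processing settings, 2 of which changed its sign.

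Of the genes linked to Mef2c in osteocytes and bone, 3 of the 4 that could be ordered were 2-fold or more lower in Runx2+/-. Of all ordered genes, 13.8% were. Dmp1, a matrix phosphoprotein, was 2.66 lower, Mepe 2.09 lower and Phex, a phosphate-regulating endopeptidase, 1.90 lower on the Runx2+/- array, while Tnfrsf11b (osteoprotegerin) was at least 1.15-fold higher. Sost, which Mef2c activates in osteocytes through a distant enhancer, and Tnfsf11 (Rank ligand) did not clear background on any of the 3. The median of the 4 ordered genes was -1.99, beside 0.13 over all ordered genes. It ran from -2.32 to -1.05 under 11 other processing settings. The related factors Mef2a and Mef2d were 0.55 and 0.43 higher with their brightest probes, and another Mef2a probe stood at -1.001. The class IIa deacetylases that repress Mef2 proteins were spread, with Hdac7 at 0.70, Hdac5 at -0.14 and Hdac4 at -0.60.

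For age, of the other osteoblast transcription factors, 21 could be ordered, 1 was 2-fold or more lower at P7 (Dlx6, a bound), 1 was higher, and the median was 0.15, while Runx2 differed by -0.92. Of the Mef2c-linked genes, Dmp1 was 1.22, Mepe 0.93 and Phex 0.49 higher at P7. The secretory genes linked to Creb3l1 had 0 of 14 ordered genes 2-fold apart and a median of 0.17, with Sec24d at 0.76. For age, 3.29% of all ordered genes were 2-fold or more lower and 6.33% higher by as much, with a median of 0.03. All these age values use the same P7 wild-type array as the genotype values.

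**Figure D4:**
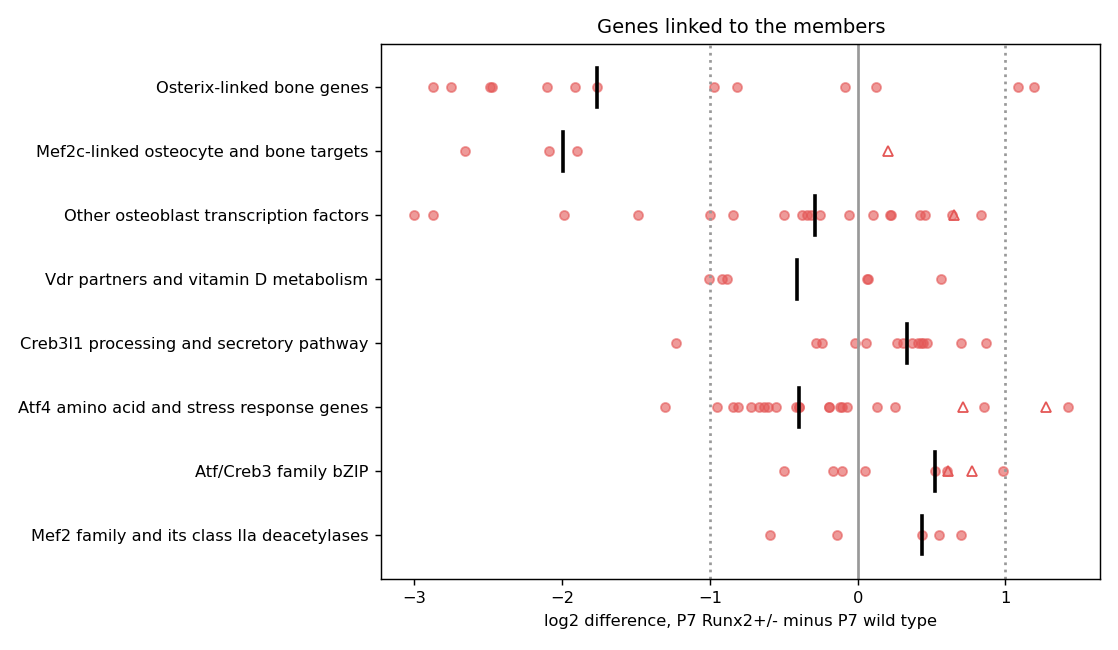
Genotype log2 difference (horizontal axis) of every ordered gene in 8 lists linked to the members (rows). Filled circles are genes measured on both arrays, open triangles are bounds, black bars are list medians and dotted lines mark 2-fold. The medians of osterix-linked (-1.77) and Mef2c-linked (-1.99) bone genes lie left of the lower dotted line, and those of the other 6 lists lie between the dotted lines.

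The tissue label was checked against cell type markers. All 6 osteoblast markers were well above background on all arrays, and their summed level was 841 times the 75th percentile at P5, 1310 at P7 in wild type and 262 on the Runx2+/- array, highest at P7 in wild type and lowest in Runx2+/-, as for Sp7 and Vdr. Col1a1 made up most of this sum. Ifitm5 did not follow it, at 0.12 for genotype and -0.78 for age, and Ibsp differed by 0.10 with age. All 6 osteoblast markers also stand in the osterix-linked or Mef2c-linked lists above, so this sum reuses values already given and is no separate observation. In whole tissue, fewer osteoblasts and less RNA per osteoblast cannot be told apart. Osteoclast markers, 5 of 6 measured on at least 1 array with Calcr not above background anywhere, had summed levels of 150.1, 303.8 and 135.6, although Ctsk was 0.82 higher in Runx2+/- than at P5. For genotype, 4 of the 5 were 2-fold or more lower, where 13.8% of all ordered genes were. Ctsk differed by -0.06 and made up most of the Runx2+/- sum. Muscle, B cells, endothelium and neurons also use Mef2c. Skeletal muscle markers (7 of 11 measured, with Myod1, Myog and Ckm not above background on any array) had summed levels of 11.7, 8.20 and 7.67, B cell markers (6 of 7 measured, Pax5 not) of 12.2, 9.44 and 15.9, endothelial markers (7 of 7) of 121.9, 116.3 and 206.4, and neuronal markers (5 of 5) of 276.7, 251.1 and 62.0. The neuronal sum was mostly Snap25, and the list's median age difference was -1.81, with Tubb3 and Stmn2 both at -2.01. The endothelial sum on the Runx2+/- array was mostly Egfl7. For genotype the endothelial median was 1.51, with 5 of 7 genes 2-fold or more higher, where 5.2% of all ordered genes were. Pecam1 differed by -0.15, and the 2 Kdr probes by -1.97 and 1.87. Keratinocytes also use Vdr. Their markers (3 of 5 measured, none at P7 in wild type, Krt14 and Krt1 not) summed to 3.45, 1.46 and 1.63. Neutrophil markers (7 of 7) summed to 827.9, 73.2 and 330.0, chondrocyte markers (6 of 6) to 11.8, 21.6 and 33.4, macrophage markers (5 of 5) to 54.6, 63.1 and 64.0, and erythroid markers (2 of 4) to 348.1, 236.5 and 136.8. The neutrophil sum was mostly S100a9, and Elane went against it, at 0.74 for age and -1.13 for genotype. The macrophage sum was mostly Csf1r, at 0.18 for age and 0.09 for genotype. Lyz2 differed by -2.28 for age and 2.03 for genotype, and Cd68 by 1.21 and -1.10. Of the 6 chondrocyte markers, 5 lay above 0 for genotype, while Acan was at -0.67. The part of cell numbers in the member differences was not tested.

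The members' profiles over the 3 arrays were compared by the root-mean-square distance between log2 levels centred on each gene's own mean. Sp7 lay 0.19 from Vdr and 0.24 from Creb3l1, and Mef2c lay 0.25 from Creb3l1. Atf4 lay 0.57 from Mef2c, 0.80 from Creb3l1, 0.98 from Sp7 and 1.17 from Vdr, and Mef2c lay 0.66 from Vdr. Among 8701 genes measured on all arrays, the nearest to Sp7 were Igf2, Sparc and Mt3, all within 0.03. Sparc encodes osteonectin, an abundant bone matrix glycoprotein, and Igf2 an insulin-like growth factor. The nearest to Vdr were Cxcl11, Hhip and Elk1, to Creb3l1 Fam177a2, H1f8 and Barhl1, to Mef2c Sesn2, Hdhd3 and Mboat1, and to Atf4 Plcg1, Myo7a and Araf. The probes of Cxcl11 and Plcg1 were not matched by RefSeq accession and keep the array's own name. At P7 in wild type Elk1 and Cxcl11 stood at 11.88 and 10.82 log2 units, above Col1a1 at 9.84. Whether these probes read the genes they are named for was not tested. With 3 arrays many genes lie close: 219 genes were within 0.25 of Sp7, 110 of Vdr, 486 of Creb3l1, 1387 of Mef2c and 3201 of Atf4.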

How the data were processed

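Per the labels' protocols, suture RNA was converted to amplified Cy3 cRNA, and each group has 1 array. The authors deposited Agilent Feature Extraction output, for which the headers name 10.7.1.1 and the submitters' processing notes 9.5.1.1. Its processed signal is an intensity on a linear scale, with background subtracted and detrending applied, per the file headers. A deposited table of the authors' processed intensity values, whose making is not given in the sources used here, served as an alternative.

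Control spots and outlier spots were left out, spots of a probe were averaged on the log2 scale, and each array's 75th percentile was subtracted. A gene took its brightest probe, and names were updated through RefSeq accessions (GRCm38.p6). A probe not well above background took at least the lowest level of any probe that was, and a difference against it was a bound, kept if the measured array was the higher. Differences of at least 2-fold were counted, with no test. Genes named were the 5 members with every probe, up to 4 genes per list and comparison with the largest difference past 2-fold, list genes needed to describe roles, and the 3 genes nearest each member among those above background on all arrays with a mean at or above the percentile. Members and lists were chosen with earlier results of these data known. Normalization used limma 3.58.1 in R 4.3.3. Some list genes counted here are not reported by name. Calling was checked on simulated data whose only noise was that of repeated spots. The simulation had no background floor, no difference in array brightness and no variation between mice. It therefore does not test how these affect the calls. Precision is limited by the number of arrays.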

Additional observations from a re-analysis of the deposited data

How the results depend on the processing

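Leaving aside the 2 scalings added later, 0 members were 2-fold apart for age under any alternative, and 2 or 3 were for genotype except after normexp (offset 50) with the 75th percentile. There 1 was 2-fold apart (Atf4, higher), Sp7 was at -0.88 and Creb3l1 at 0.14. The cause was not tested. That setting gave 4346 genes at least 2-fold higher and 525 lower for genotype, against 750 and 1988, so that 89.2% of calls were higher against 27.4%. For age it gave 32 and 937, against 907 and 471 (3.30% against 65.8% higher), and with the median as scale 153 and 282 (35.2%). Without filter and floor these counts were 1738 and 16687 for genotype (9.43%), and 13667 and 1465 for age (90.3%), and the keratinocyte median for age became 0.48. Added after seeing the data, no scaling gave 2 members 2-fold apart for age and genotype values of 0.78 for Sp7, 1.36 for Creb3l1 and 0.34 for Vdr, and 0.034 for Sp7 against P5. Scaling to spiked-in transcripts gave counts of 1 for age and 5 for genotype, with 2.26 for Sp7, 2.84 for Creb3l1 and 1.82 for Vdr, and 1.64 and 1.27 for Sp7 and Vdr against P5. No paired analysis was possible because each group has 1 array.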

Other observations

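Probes of the same gene disagreed in sign for several genes linked to the members. Among the 131 genes of the lists other than cell type markers, 15 had more than 1 probe that could be ordered for genotype, and in 7 of them the probes lay on both sides of 0. Mef2a ranged from -1.001 to 0.55, Med1 from -1.01 to 0.63, Eif2ak4 from -0.98 to 0.71 and Rxrg from -0.89 to 0.34. For age it was 7 of 19. Sp7, Creb3l1, Vdr and Mef2c have 1 probe each, so no such comparison exists for them.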
